A study of Homo sapiens with 8 samples.

Results

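The 3 lncRNA targets beside the NKD1 gene on human chromosome 16, with the identifiers T132146, T132148 and T132151, were followed through a pooled growth screen. They are 3 of the 957 lncRNA targets in the count files and hold 20 of the 6389 targeting sgRNAs, with 6 sgRNAs for T132146, 9 for T132148 and 5 for T132151. The 3 targets were chosen by their identifiers and with measured values in view, because of the depletion of 1 sgRNA of T132148, named YLQ2995. Every value of these 20 sgRNAs after against before screening is therefore given as a description. The calls and 95% intervals printed for them come from the fit over the whole library, show how large and how precise a value was, and support nothing.

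The screen was run in SW620, an established human colorectal adenocarcinoma line that had been made to express dCas9 fused to KRAB. All 8 libraries come from these cells carrying the same pool of sgRNAs, delivered by lentivirus in 4 independent infections and followed by puromycin selection. Of the 8 libraries, 4 were taken before screening (day 0) and 4 after screening, which the sample titles give as day 17 and the cultured time gives as 18 days. Total counts per library lay between 3417248 and 3999875, so that 1 read corresponded to 0.25 to 0.293 RPM (the reads of an sgRNA scaled to a common library total). Cells without dCas9/KRAB were not analysed here, and the RNA of the 3 targets and of NKD1 was not measured in these files.

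In CRISPR interference (CRISPRi), dCas9 cannot cut DNA but is led to a promoter by the sgRNA, where the KRAB domain represses transcription. An sgRNA that lowers a transcript needed for growth becomes rarer in the culture. NKD1 (naked cuticle homolog 1) is an inhibitor of Wnt signalling that binds Dishevelled proteins and is itself switched on by Wnt/β-catenin, a pathway that is active in most colorectal cancers. Repression by dCas9/KRAB acts around the bound site, so an sgRNA placed near the start of one transcript may also lie close to the start of another.

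The 9 sgRNAs of T132148 are shown because 1 of them, YLQ2995, led to the choice of the targets. They are given from the 5′ to the 3′ end, with the 12 bases next to the PAM (the seed) in capitals, and ordered from the most upstream to the most downstream site.
YLQ2995: gcagtgctGCTCTAGAGAGT
YLQ2994: ggacttgaCATCTGGGGATT
YLQ2993: tggggattTGGGTATCCTCT
YLQ2992: gactggttCCAGGATCCTAG
YLQ2991: ttggatatATGGTGTTCCCT
YLQ2990: gcaaatggTCACTTGCAATA
YLQ2989: agccactaGCCAAGTGCAAA
YLQ2988: atgaagagATTTATGACTCT
YLQ2987: gaacatgaAAGTAAGACACT

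The files place the transcription start site (TSS) of T132146 at 50539806 on the plus strand of chromosome 16, that of T132151 at 50560547 on the plus strand, and that of T132148 at 50581029 on the minus strand. The starts of T132146 and T132148 are 41.2 kb apart, and that of T132151 lies 20.7 kb from the first and 20.5 kb from the second. The 3 identifiers thus stand for 3 separate start sites, and none of them shares a promoter with another. The files name no genome build. Of 679 letter-for-letter matches between an sgRNA and a RefSeq promoter window of the same chromosome in GRCh38, 0 had exactly the same coordinate. The positions are therefore printed as given and were not converted.

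The position beside NKD1 was checked by sequence. None of the 20 sgRNAs matched any of the 35116 promoter windows in the RefSeq table, which holds 0 windows for NKD1. On one side of the 3 targets, 7 sgRNAs of T132106, about 152 kb from the TSS of T132148, matched the promoter of LINC02178. On the other side, YLQ3038 and YLQ3039 of T132165, 66.5 kb away, matched the promoter of NKD1-AS1, the antisense transcript of NKD1. In the RefSeq table NKD1 starts beyond the end of LINC02178, and NKD1-AS1 lies inside NKD1. The 3 targets lie between these matched sites in the files' coordinates. The distance from T132148 to the start of NKD1 was not measured.

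YLQ2995 was the only sgRNA of T132148 upstream of the start. Its site lies 205 bp upstream (position 50581234), and the other 8 lie 171 to 492 bp downstream. Its nearest neighbour of the same target is YLQ2994, at a distance of 376 bp. Of all targeting sgRNAs, 17.9% lie upstream of their TSS and 1.77% (113 sgRNAs) lie 205 bp or more upstream.

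The strand in the files is opposite to the one along which an sgRNA reads. For all 206 pairs of same-strand sgRNAs within 14 bp of each other, the shared bases matched when the oligos were read along the opposite strand, and 0 pairs matched when they were read along the strand given. By this reading YLQ2995 and 6 of its 8 companions run against the direction of the transcript, and YLQ2993 and YLQ2994 run along it.

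The sgRNAs of T132148 are not fully independent probes of the site. YLQ2993 and YLQ2994 share 8 bases, YLQ2989 and YLQ2990 share 5, and YLQ2992 and YLQ2993 share 2. YLQ2995 shares none with any of them. Its GC content was 55%, against 30% to 55% for the other 8 and a median of 50% over all targeting sgRNAs.

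YLQ2995 was counted 14, 21, 17 and 13 times in the 4 libraries before screening and 0, 0, 0 and 0 times in the 4 libraries after screening. The groups did not overlap, and the sgRNA was absent from every later library. Its mean fell from 4.26 ± 0.954 RPM (SD, n = 4) to 0. Against a floor of 3 counts over the after screening group, which is 0.212 RPM, it was at least 20.1-fold lower after screening. The floor covers counting error only.

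This change rests on few reads. YLQ2995 started with a mean of 16.2 counts, at the 5.46th percentile of the targeting sgRNAs, whose median abundance was 75.8 RPM. The next rarest sgRNA of T132148, YLQ2987, started 9.3-fold higher, at 39.6 RPM. The coefficient of variation of YLQ2995 before screening was 22.4%, and counting alone gives 24.8% at its mean count.

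Other sgRNAs with a like start were set beside it. In a window of 50 to 80 summed counts before screening, chosen after the data were seen, there were 135 other sgRNAs, 119 targeting and 16 non-targeting. None of the 135 was at 0 in all 4 libraries after screening (0 of 135). Their summed counts after screening had a median of 64, a 10th percentile of 29.8 and a lowest value of 3, and 25 of them had a 0 in at least 1 later library. In all, 53 sgRNAs of the files were at 0 in every later library, and apart from YLQ2995 the best counted of them had started with 31 summed counts, against 65 for YLQ2995. As YLQ2995 was picked for its depletion, its place apart from these sgRNAs follows from the choice. Nothing is read from it on why YLQ2995 was lost.

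**Figure D1:**
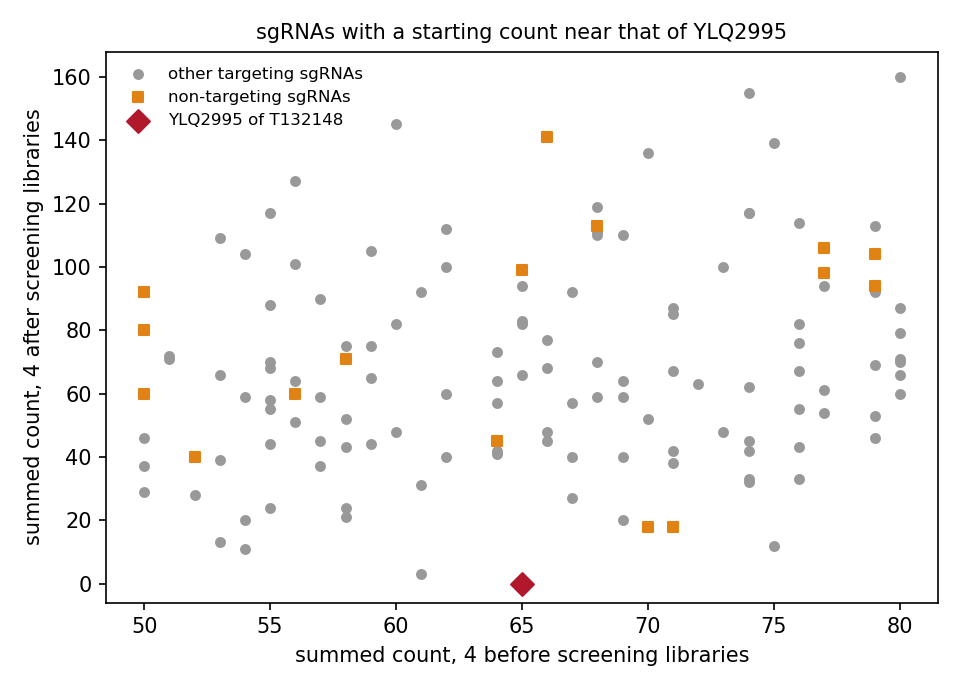
Summed counts of 136 sgRNAs in the 4 libraries after screening (y axis) against the 4 libraries before screening (x axis), with targeting sgRNAs as grey circles, non-targeting sgRNAs as orange squares and YLQ2995 as the red diamond. YLQ2995 is at 0 on the y axis from a start of 65, and the next lowest sgRNA of this window is at 3.

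None of the other 8 sgRNAs of T132148 was called, and their log2 fold changes lay between -0.06 and 0.34. YLQ2991, 234 bp downstream and the most abundant of them, measured 630, 638, 696 and 627 RPM before screening and 679, 591, 667 and 671 RPM after screening. Its groups overlapped, and its log2 fold change (after over before, from edgeR) was 0.02 ± 0.06 (SE). For YLQ2993, 183 bp downstream, the means were 412 ± 13.1 and 421 ± 21.8 RPM (SD, n = 4 each). These are well counted sgRNAs, and the 95% interval of the fold change was 0.936 to 1.1 for YLQ2991 and 0.935 to 1.13 for YLQ2993.

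YLQ2994, which overlaps YLQ2993, had a mean of 329 ± 14.3 RPM before and 314 ± 27.8 RPM after screening, with a log2 fold change of -0.06 ± 0.08. YLQ2992 had 293 ± 18 and 280 ± 19.6 RPM, and its log2 fold change was also -0.06 (± 0.09). Both had overlapping groups, and the value of YLQ2994 turned to 0.0049 without replicate 1 after screening.

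YLQ2990 and its overlapping neighbour YLQ2989 were the highest of the target. YLQ2990 measured 122, 114, 125 and 141 RPM before screening and 150, 175, 147 and 158 RPM after screening, so that every later library was above every earlier one. Its log2 fold change was 0.34 ± 0.12. YLQ2989, with 5 bases in common, had a log2 fold change of 0.25 ± 0.18 (0.12 to 0.38 without 1 library) and overlapping groups. The sites lie 364 and 379 bp downstream of the start.

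The 2 most distal sgRNAs, YLQ2988 and YLQ2987, had log2 fold changes of 0.05 ± 0.19 and 0.05 ± 0.24. They were counted 120 to 219 times per library before screening and 96 to 268 times after it, with overlapping groups. The sign of both changed without replicate 1 after screening (and without 1 or 2 of the earlier libraries), over a range of -0.06 to 0.10 for YLQ2988 and -0.16 to 0.20 for YLQ2987.

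The median log2 fold change of T132148 was 0.04 over its 9 sgRNAs and 0.05 without YLQ2995, beside a median of 0.01 over all 6126 tested targeting sgRNAs. The first value is the same whether YLQ2995 enters with its fitted change or at its bound of -4.33. Together the 9 sgRNAs held 1971 ± 64 RPM at the start and 1997 ± 41.3 RPM at the end (SD, n = 4 per group), since YLQ2995 contributes little to the sum. Among 785 targets with at least 5 tested sgRNAs, none had a wider gap between its lowest and its second lowest log2 fold change than T132148, at 4.27 with YLQ2995 at its bound. As YLQ2995 chose the target, this gap is a description of the choice.

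**Figure D2:**
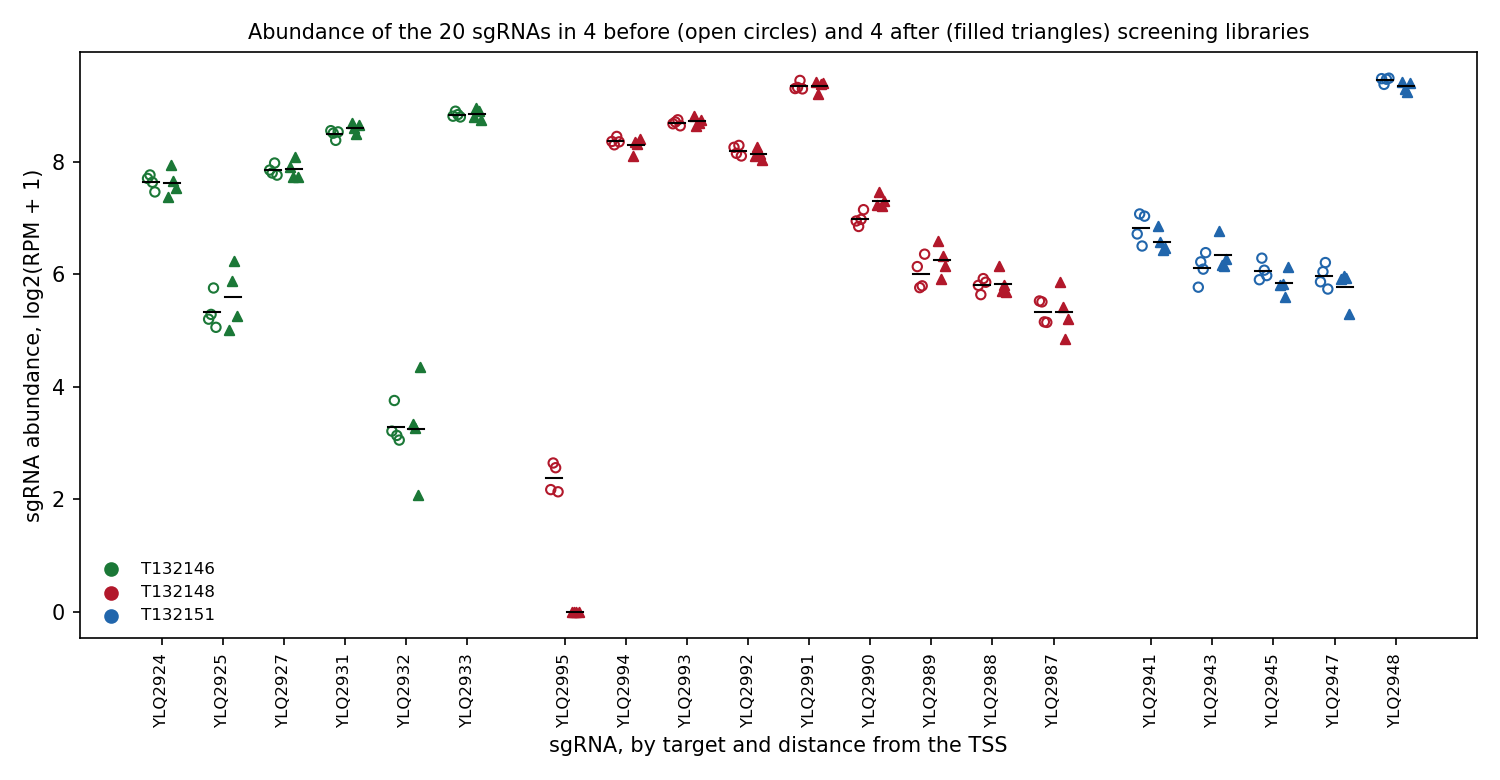
Abundance of the 20 sgRNAs as log2(RPM + 1) (y axis), by target and from upstream to downstream along the x axis, with open circles for the 4 libraries before screening, filled triangles for the 4 after it and black lines for the means. YLQ2995 falls to 0 in all 4 later libraries, YLQ2990 has every triangle above every circle, and the symbols of the other 18 sgRNAs overlap.

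T132146 is the most distant of the 3 from T132148 and is read from the opposite strand. Its 6 sgRNAs lie from 48 bp upstream to 282 bp downstream of its start, and the 6 log2 fold changes lay between 0.01 and 0.34. For 4 of the 6 (YLQ2924, YLQ2927, YLQ2932 and YLQ2933) the sign changed when 1 library was left out, for YLQ2924 and YLQ2932 also with a replicate block, and for YLQ2924 also when libraries were scaled to their totals or to the non-targeting sgRNAs and in the ratio of mean RPM. No common direction is therefore read from them. The median was 0.08, higher than that of 83.9% of the 832 targets with at least 3 tested sgRNAs. Summed over the 6 sgRNAs, the mean went from 1293 ± 35.8 to 1343 ± 61.7 RPM (SD, n = 4 per group), a difference of less than the spread after screening.

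The 2 upstream sgRNAs of T132146 differed in precision. YLQ2924, 48 bp upstream, had 207, 217, 198 and 175 RPM before and 164, 245, 202 and 185 RPM after screening, and a log2 fold change of 0.01 ± 0.11 (-0.11 without replicate 2 after screening). YLQ2925, 21 bp upstream and the highest member by log2 fold change, had 35.8, 38, 53 and 32.3 RPM before and 31.1, 57.7, 74.3 and 37.2 RPM after screening. Its log2 fold change of 0.34 ± 0.24 comes from replicates 2 and 3 after screening (0.09 to 0.52 without 1 library), and the other 2 later libraries lie within the range before screening or just below it.

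Downstream of the start, YLQ2927 and YLQ2933 started at 230 and 456 RPM. Their log2 fold changes were 0.03 ± 0.10 (-0.05 without replicate 3 after screening) and 0.03 ± 0.07 (-0.01 without replicate 2 after screening). YLQ2931 had means of 359 ± 18.8 and 390 ± 23.8 RPM (SD, n = 4 each), with overlapping groups and a log2 fold change of 0.13 ± 0.07, and it was higher after screening under all 4 replicate numbers. Its 12-base seed with a following NGG was found in promoter windows of 2 genes, LINC02966 and ZEB1, among the 35116 windows. The seeds of the other 19 sgRNAs, YLQ2995 included, were found with NGG in 0 windows, as were those of 75.6% of all targeting sgRNAs. Both strands were searched, and a missing match says only that these letters are not in these windows.

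YLQ2932 was the other thinly counted member. It was counted 33, 50, 27 and 28 times before and 35, 30, 11 and 66 times after screening. The later libraries lay on both sides of the earlier ones, and the log2 fold change was 0.18 with an SE of 0.51, and -0.35 without replicate 4 after screening. With about 34.5 counts per library it started at the 11.2th percentile. YLQ2995 started lower, with a mean of 16.2 counts at the 5.46th percentile. YLQ2932 was present in all 4 later libraries.

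T132151 had the lowest median of the 3, at -0.16, and 4 of its 5 sgRNAs had a log2 fold change below 0. Of the 832 targets, 2.52% had a lower median. The sum over its sgRNAs was 985, 1012, 1002 and 1042 RPM before and 1021, 909, 867 and 945 RPM after screening. Replicate 1 after screening lay within the range before screening and the other 3 below it, so the groups overlapped, with means of 1010 ± 23.9 and 935 ± 65.2 RPM (SD, n = 4 each).

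The best counted of these, YLQ2948 with means of 699 ± 24.5 and 647 ± 37.5 RPM (SD, n = 4 per group), had a log2 fold change of -0.10 ± 0.06 and was lower under all 4 replicate numbers. YLQ2947, which overlaps it by 6 bases, had -0.16 ± 0.19, which became -0.02 without replicate 4 after screening and -0.07 without replicate 3 before screening. YLQ2941 and YLQ2945 had -0.25 ± 0.15 and -0.21 ± 0.18. Without 1 library their values ran from -0.35 to -0.16 and from -0.32 to -0.13. Of these 4 sgRNAs the 95% interval of YLQ2945 reaches lowest and allows a fold change between 0.669 and 1.12.

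YLQ2943 went against the others of T132151, with a log2 fold change of 0.25 ± 0.18. It measured 53.5, 73.5, 67.1 and 82.5 RPM before and 108, 70.7, 70.2 and 76.4 RPM after screening. Replicate 1 after screening was the only later library above the earlier range. The log2 fold change was 0.08 without it and 0.14 without replicate 1 before screening.

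**Figure D3:**
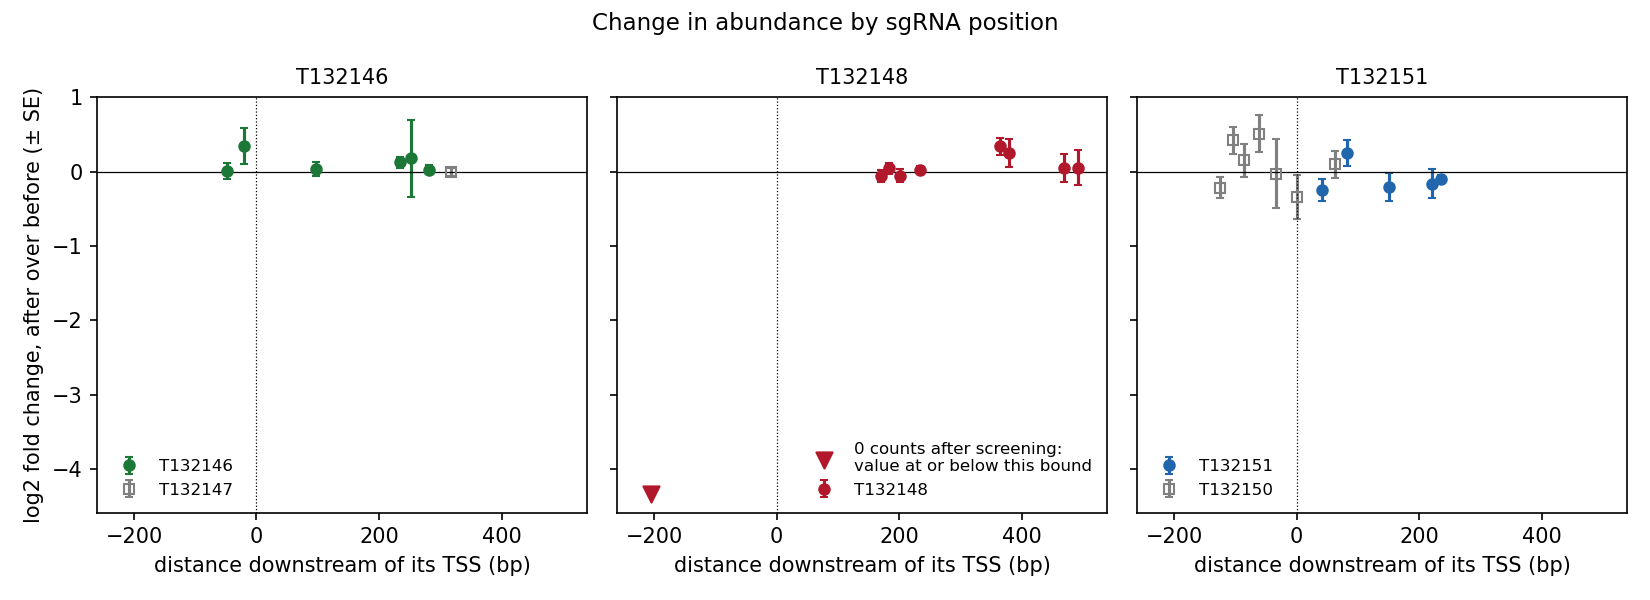
Log2 fold change after over before screening with its SE (y axis) against distance downstream of the TSS in bp (x axis), in 1 panel for each of T132146, T132148 and T132151, with the sgRNAs of T132147 and T132150 as open grey squares placed by their distance from the TSS shown. The red triangle is the bound of YLQ2995 at -4.33, 205 bp upstream of the start of T132148, and the other members lie between -0.25 and 0.34.

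Across the 3 targets, edgeR called 1 of the 20 sgRNAs depleted at an adjusted p under 0.05 (YLQ2995) and 0 enriched. Over all 6126 tested targeting sgRNAs 0.751% were depleted and 0.0816% enriched. By range, 1 of 20 had every later library below every earlier one (YLQ2995) and 1 had every later library above (YLQ2990), where all tested targeting sgRNAs gave 2.74% and 1.67%. Since this contrast chose the members, nothing is read from these counts.

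Apart from YLQ2995 the 19 sgRNAs had fold changes between 0.842 and 1.27, 6 below 1 and 13 above. The 18 members that started with 100 counts or more in each library had interval ends between fold changes of 0.669 and 1.78, so a change of the size of that of YLQ2995 lies outside all of them. YLQ2995 was picked for its depletion, so its distance from the other members follows from the choice. The medians of the 3 identifiers were 0.08 for T132146, 0.04 for T132148 and -0.16 for T132151.

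A further pair of targets, T132147 and T132150, start at the same promoters and were not part of the choice. The start of T132147 is 67 bp from that of T132146, and its single sgRNA YLQ2934, with means of 886 ± 46 and 875 ± 48.4 RPM (SD, n = 4 per group), had a log2 fold change of -0.01 ± 0.05 (edgeR adjusted p = 0.999). The start of T132150 is 116 bp from that of T132151. Its 7 sgRNAs had log2 fold changes from -0.35 to 0.51 with a median of 0.10, 3 below 0 and 4 above, against -0.16 for T132151. None of the 7 was called (lowest adjusted p = 0.707 in edgeR), and 2 had an unadjusted p under 0.05. Its sgRNA YLQ2942 shares 1 base with YLQ2943, and their log2 fold changes were 0.10 ± 0.18 and 0.25 ± 0.18.

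Within 100 kb of the TSS of T132148 there were 22 other targets with 125 sgRNAs, T132147 and T132150 included, of which 121 were tested. Their median log2 fold change was 0.01, with 55 below 0 and 66 above. edgeR called 0 of them at an adjusted p under 0.05 (lowest adjusted p = 0.08). In the same fit 9 (7.44%) had an unadjusted p under 0.05, against 5.97% of all tested targeting sgRNAs. Among the 461 tested non-targeting sgRNAs, 42 had an unadjusted p under 0.05 in edgeR, so the locus share is not read as raised. Over all targeting sgRNAs DESeq2 called 74 depleted and 17 enriched, and of the 121 at the locus it called 1. That one, YLQ2893 of T132113, was named after its values were seen. It measured 38.3, 51.5, 49.6 and 53.1 RPM before and 12.5, 27.4, 22.3 and 35.1 RPM after screening, so that its groups did not overlap, and its log2 fold change was -0.97 ± 0.26 in edgeR. Its site lies at the far end of this window, on the side of LINC02178.

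In 3 of the 121 (2.48%) every later library lay below every earlier one, near the 2.74% over all tested targeting sgRNAs, and these 3 were also picked after their values were seen. Beside YLQ2893 they were YLQ3037 of T132165, the target whose other sgRNAs match the NKD1-AS1 promoter, and YLQ3043 of T132166. YLQ3037 had 19.5, 22, 19 and 18 RPM before and 1.04, 13, 12.8 and 11.1 RPM after screening, with a log2 fold change of -1.04 ± 0.46 (edgeR adjusted p = 0.729). YLQ3043 had a log2 fold change of -0.30 ± 0.14 (edgeR adjusted p = 0.773). None of the 121 had every later library above every earlier one, where the share over all tested targeting sgRNAs was 1.67%.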

How the data were processed

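The deposited values are raw read counts for each sgRNA, 1 table per library, which the authors obtained by PCR of the integrated sgRNAs and sequencing, without normalization or pooling. Bowtie, FastQC 0.11.2 and hg38 are listed in the submitters' processing notes without a role. How reads were assigned to sgRNAs is not given in the sources used here. Counts are reads, not molecules, so counting intervals and floors cover counting error only.

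Libraries were grouped by their titles. Counts of 6862 sgRNAs were filtered with filterByExpr (default), scaled with TMM factors (0.993 to 1.01) and fitted in edgeR 4.0.16 (R 4.3.3) with glmQLFit (robust) and glmQLFTest on the group alone. Benjamini-Hochberg adjustment ran over 6587 tested sgRNAs (6126 targeting, 461 non-targeting, of which 0 were called and 42 had an unadjusted p under 0.05). All 20 member sgRNAs passed the filter, YLQ2995 through its counts before screening alone, as it had 0 counts in each later library. SEs are the size of the log2 fold change divided by the root of F, and 95% intervals come from the t distribution. RPM used the total count of each library. Between replicates, counts differed by more than sampling noise, so no library was a copy of another. The chi-square per degree of freedom was 4.86 to 5.27 before screening and higher after screening, at 10.4 to 11.6.

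The members and lists were chosen with earlier results of these data known. Named sgRNAs are all of the 3 targets, then, of the 2 targets with a TSS within 1 kb of a member's, those called or past a log2 fold change of 1 with at least 100 counts in every earlier library (none were), and otherwise counts only, with the exceptions stated. Sequences come from the count files, and promoter windows from RefSeq (GRCh38.p14). Alternatives were total-count scaling, factors from non-targeting sgRNAs, DESeq2 1.42.0, no filter, at least 100 counts before screening, a replicate block, each library left out, ratios of mean RPM, and the two-tailed test of the methods, run on log2(RPM + 1). Figures were drawn with matplotlib 3.10.9.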

Additional observations from a re-analysis of the deposited data

Results flagged for a closer look

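In 4 of 39 groups of 4 libraries, 1 library stood apart from the other 3 by Dixon's criterion, which chance gives in about 1 group of 20. YLQ2991 of T132148 measured 696 RPM in replicate 3 before screening, against a median of 630 RPM in the other 3, and 591 RPM in replicate 2 after screening, against 671 RPM. YLQ2943 of T132151 measured 108 RPM in replicate 1 after screening, against 70.7 RPM. YLQ2947 of T132151 measured 38 RPM in replicate 4 after screening, against 60.1 RPM.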

How the results depend on the processing

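The count of called members was 1 (YLQ2995) under every alternative except at least 100 counts before screening, where YLQ2995 was not tested and the count was 0, and it was 1 without each of the 8 libraries in turn. YLQ2995 was chosen for this value, so its call under other settings is no support for it. The fitted log2 fold change of YLQ2995 is no bound and depends on the method. It was -6.98 in edgeR, -6.35 in DESeq2 and -2.39 as a ratio of mean RPM with a pseudocount of 1 RPM. Of 298 member fold changes under an alternative, 293 moved by less than the SD between replicate numbers, and besides these YLQ2995 values the others were YLQ2931 (0.13, at 0.09 to 0.17 without 1 library). The sign changed under at least 1 alternative for 7 members, 4 of T132146 and 3 of T132148 (YLQ2987, YLQ2988 and YLQ2994).

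The median log2 fold change of T132146 (0.08) was 0.0301 with at least 100 counts before screening and 0.0274 with a replicate block, and 0.05 to 0.11 without 1 library. That of T132148 (0.04) ranged from 0.00 to 0.07 and that of T132151 (-0.16) from -0.20 to -0.09 without 1 library. The count of other sgRNAs called at the locus (0) was 1 (YLQ2893) with at least 100 counts before screening, with a replicate block, in DESeq2 and without replicate 4 after screening, so it ran from 0 to 1 without 1 library. Over all targeting sgRNAs, 46 depleted became 74 in DESeq2, 6 by the methods' two-tailed test and 36 to 49 without 1 library. The 5 enriched became 2 with total-count scaling, 2 with factors from non-targeting sgRNAs, 17 in DESeq2, 0 by the methods' test and 0 to 8 without 1 library. The cause was not tested.

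The replicate numbers occur in both groups, and the labels do not say that they mark a shared infection. Deviations from the group mean correlated with r = 0.0849 to 0.115 between same-numbered libraries over 4848 sgRNAs. For other pairs r was -0.0582 to -0.0115. As each group was centred on its mean, positive values for same-numbered pairs make the others negative on average. Their sign is no separate evidence. All 4 libraries of each group correlated best with their own number, a hint from the data and not the design. With the replicate block 52 sgRNAs were depleted and 7 enriched, the median of T132148 was 0.02 and that of T132151 -0.17, and 1 member was called. Depth limits YLQ2995 and YLQ2932, which have fewer than 100 counts per library before screening.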
